A study of Mus musculus with 126 samples.

Results

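The 10 genes described here encode enzymes that write histone H3 lysine 9 (H3K9) methylation and proteins that read it. They were chosen by symbol as heterochromatin writers and readers that could compensate for lost DNA methylation, and are 10 of the 23420 genes of a read count table. Setdb1, Suv39h1, Suv39h2, Ehmt1 and Ehmt2 are methyltransferases, Trim28 is a corepressor that recruits Setdb1, Cbx1, Cbx3 and Cbx5 are the HP1 genes, and Atrx is a chromatin remodeller found at heterochromatin. All 10 passed the filter on low counts, which left 15822 genes.

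The table comes from a study of the parts that DNA methylation and histone acetylation play in transcription factor binding in mouse embryonic stem cells (ESCs). It holds 8 RNA-seq libraries of rRNA-depleted total RNA, in 4 groups of 2. Wild type cells were of the J1 strain and carried no labelled mutation. TKO cells were J1 cells of genotype Dnmt1-/-, Dnmt3a-/-, Dnmt3b-/-, so they lack the enzymes that set and maintain DNA methylation. Cells of each genotype received Trichostatin A (TSA), an inhibitor of histone deacetylases, at a labelled 5 ng/µl, or 0.0033% DMSO as the control, for 36 h. Culture was on gelatin in all groups, in medium with serum and leukaemia inhibitory factor. Whether the TKO cells were 1 clone, and what made the replicates separate, is not given in the sources used here, so p-values measure the spread between these libraries, which may be technical.

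In heterochromatin, Suv39h1 and Suv39h2 place H3K9 trimethylation at pericentromeric repeats, Setdb1 places it at retrotransposons where KRAB zinc finger proteins and Trim28 bring it, and Ehmt1 and Ehmt2 together place mono- and dimethylation on euchromatic genes. HP1 proteins bind the methylated lysine through their chromodomain and help to compact the fibre. In ESCs the Setdb1 and Trim28 pathway is known for silencing endogenous retroviruses, and DNA methylation and H3K9 methylation lie on many of the same repeats.

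The promoters of Suv39h1 and Cbx5 are shown because these genes had the largest increase and decrease with TSA among the 10, and because CpG sites are what the missing enzymes methylate. All 10 genes matched RefSeq promoters of GRCm38.p6, each a window of 300 bases of which 250 lie upstream of the start site. The upstream part of Suv39h1 spans chrX:8074761-8075010 on the minus strand and that of Cbx5 spans chr15:103239853-103240102 on the minus strand. Both are written 5′ to 3′ with each CpG in capitals.
Suv39h1: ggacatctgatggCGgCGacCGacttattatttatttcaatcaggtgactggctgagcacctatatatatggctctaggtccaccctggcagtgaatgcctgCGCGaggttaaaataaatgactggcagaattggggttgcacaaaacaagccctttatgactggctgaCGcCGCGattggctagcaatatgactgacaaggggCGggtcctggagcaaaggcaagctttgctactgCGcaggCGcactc
Cbx5: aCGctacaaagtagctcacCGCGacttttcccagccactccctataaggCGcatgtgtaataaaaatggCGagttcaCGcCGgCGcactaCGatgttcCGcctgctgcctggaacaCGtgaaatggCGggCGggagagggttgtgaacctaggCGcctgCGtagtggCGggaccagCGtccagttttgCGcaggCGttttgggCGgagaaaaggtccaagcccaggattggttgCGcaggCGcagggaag
The Suv39h1 stretch holds 11 CpG sites and the Cbx5 stretch 22. Over the whole windows the 10 genes held 11 to 34 CpG sites at a GC content of 50.3% to 75.3%, against medians of 7 CpG sites and 52.7% over all 32851 RefSeq windows.

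The windows were searched on both strands for short motifs of the 5 factors that the study assayed by ChIP-seq, in samples not analysed here. The NRF1 motif, GCGCA and GCGC parted by any 1 base, contains CpG sites. It was present in 4 of the 10 windows, against 4.6% of all windows and 10.8% of the 13594 windows with at least 11 CpG sites. These 4 sites are shown with 20 flanking bases and the motif in capitals, since all 4 carry the same 10 letters. The motif begins at position -14 from the start site in Suv39h1, -126 in Suv39h2, -148 in Ehmt1 and -17 in Cbx5.
Suv39h1: ggcaagctttgctactGCGCAGGCGCactc
Suv39h2: ccgcccccaccgtgcgGCGCAGGCGCggta
Ehmt1: caggttgaatttcagcGCGCAGGCGCcacc
Cbx5: aagcccaggattggttGCGCAGGCGCaggg
Of the genes with this motif, Suv39h2, Ehmt1 and Cbx5 fell with TSA in both genotypes, while Suv39h1 rose in TKO cells. Trim28, Cbx1 and Cbx3, without it, also fell in both genotypes. A part of the motif in these changes was not tested. The YY1 motif ATGGCGGC was present in 3 windows, the SP1 motif GGGGCGGGG in 3, the MAX motif CACGTG in 2 and the GABPA motif CCGGAAGT in 0. Over all windows these shares were 2.24%, 11.4%, 7.15% and 3.89%, and over windows with at least 11 CpG sites they were 4.95%, 24.4%, 11% and 8.0%. A match describes letters in a window and is not evidence of binding.

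Total counts per library ran from 13280631 to 15542527, so 3 counts correspond to 0.193 to 0.226 CPM. CPM is a count as a share of its library, scaled by TMM factors, a correction for library composition. The targeted genes were lower in both TKO groups, with Dnmt1 at 126 to 135 CPM in TKO DMSO against 428 to 464 in wild type DMSO, Dnmt3a at 25.9 and 27.0 against 185 and 236, and Dnmt3b at 43.7 and 46.2 against 588 and 596. Part of each transcript was still counted, and which exons the deletions remove is not given in the sources used here. H1f0, a linker histone gene that responds to deacetylase inhibitors, was at 40.1 and 50.2 CPM in wild type DMSO and at 120 and 98.1 with TSA. Each of 8 ESC markers was at or above 1 CPM in every group. Their summed level was 3050 to 3440 CPM with DMSO and 1670 to 1860 with TSA in wild type cells, and 3910 to 4230 with DMSO and 1590 to 1950 with TSA in TKO cells.

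Levels of different genes were compared as normalised CPM per kb of exon. In wild type DMSO, Trim28 was highest at 728 ± 28.7 (SD, n = 2), followed by Cbx5 at 133 ± 2.59 (SD, n = 2) and Cbx1 at 130 ± 16.2 (SD, n = 2). Ehmt2, Atrx and Setdb1 stood at 52.1, 52.0 and 46.0, and Ehmt1, Suv39h2, Suv39h1 and Cbx3 at 29.4, 20.3, 18.9 and 13.1. The libraries overlapped between the neighbours Cbx5 and Cbx1, Ehmt2 and Atrx, and Suv39h2 and Suv39h1. In TKO TSA, Trim28 was still first at 434 ± 1.72 (SD, n = 2) and Cbx3 last at 6.52 ± 2.08 (SD, n = 2), while Cbx5 stood sixth at 30.7 ± 4.52 (SD, n = 2), overlapping Ehmt2 at 35.6 ± 12.1 (SD, n = 2). The HP1 genes have processed copies in the genome, and how the counting treated reads that match several places is not given, so the low Cbx3 level is uncertain.

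**Figure D1:**
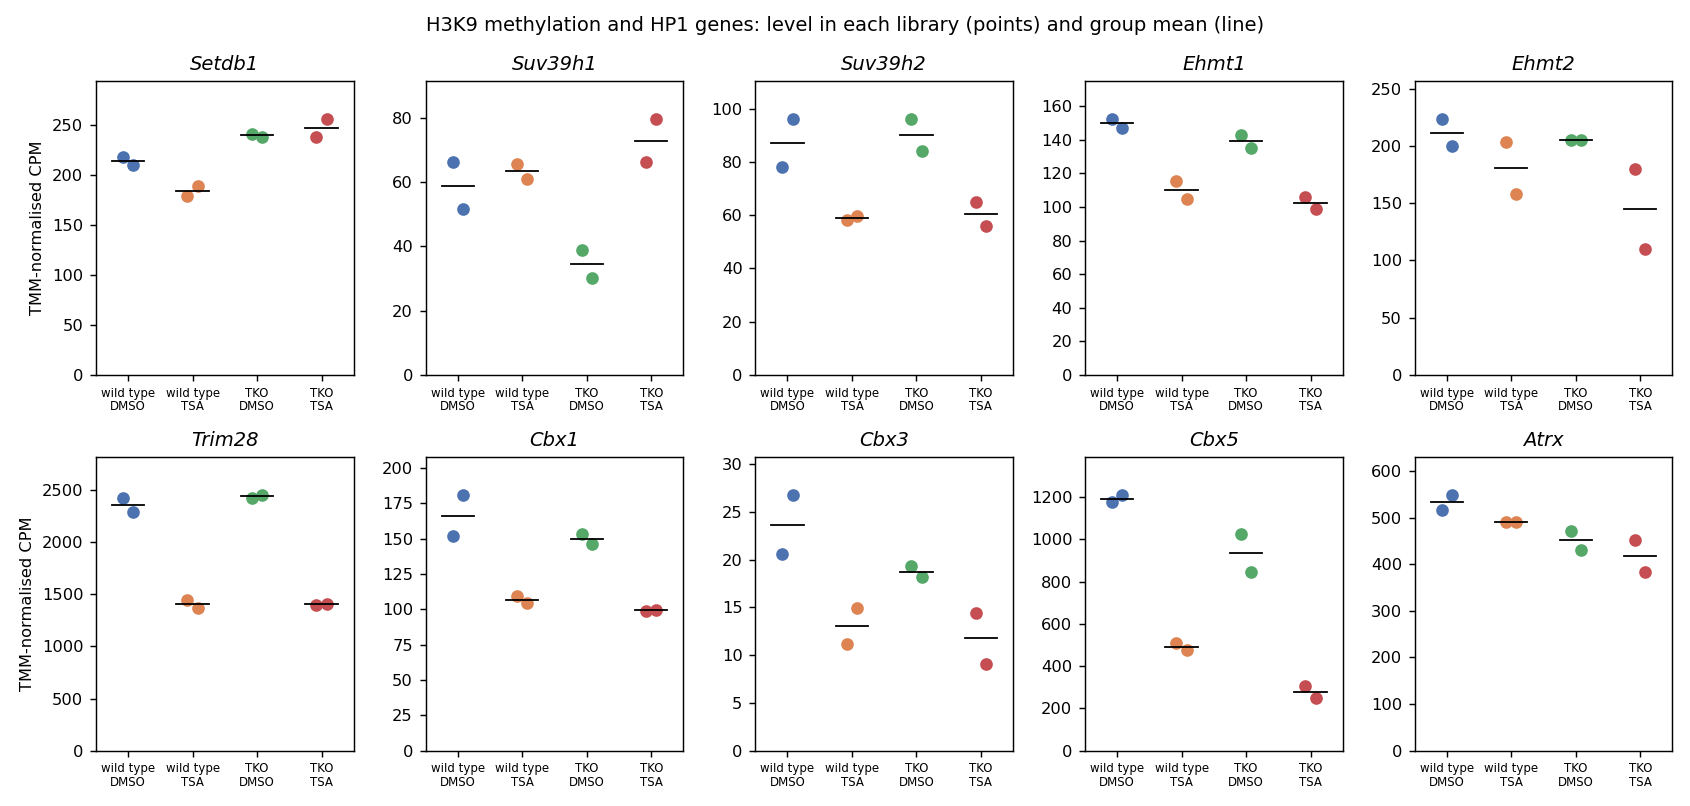
TMM-normalised CPM (y axis, from 0) of each of the 10 genes in the 4 groups (x axis), with 1 point per library and a line at the mean of 2 libraries. Trim28 and Cbx5 were lower in all TSA libraries than in all DMSO libraries, while Suv39h1 was lowest in the 2 TKO DMSO libraries.

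The comparison of TSA with DMSO asks how these genes responded to 36 h of the inhibitor with DNA methylation present or absent. Histone acetylation itself was not examined here. TSA lowered most of the 10 genes in both genotypes. In wild type cells 7 of 10 fell, 0 rose and 3 were not called at an adjusted p below 0.05 (edgeR quasi-likelihood test, Benjamini-Hochberg adjustment over all 15822 genes), against 52.8% of all genes called, 25.9% lower and 27% higher. None of the 10 was higher at an unadjusted p below 0.05 or in DESeq2. In TKO cells 7 fell, Suv39h1 rose and 2 were not called, against 58.7% of all genes called, 27.9% lower and 30.8% higher. The TSA and DMSO libraries did not overlap for 8 of the 10 genes in each genotype, against 77% of all genes in wild type and 82% in TKO cells. The median log2 fold change of the 10 was -0.50 in wild type and -0.54 in TKO cells, where all genes tested had medians of 0.01 and 0.04. Among the 8686 genes whose mean level lay within the range of the 10, from 16.8 to 1900 CPM, 37.3% were called lower in wild type and 37.2% in TKO cells, with median log2 fold changes of -0.15 and -0.12.

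Of the 10, 5 genes fell in both genotypes under every one of 15 alternative analyses, namely Suv39h2, Ehmt1, Trim28, Cbx1 and Cbx5. The share of all genes that did so was not computed, so whether 5 of 10 is unusual was not tested. The calls of these 5 genes did not depend on the scaling of the libraries. Scaling by total counts moved the median of all genes to 0.22 in wild type and 0.19 in TKO cells, and the upper quartile moved it to 0.16 and 0.11. With those scalings 70.5% and 65.8% of the genes called in wild type cells were higher, against 51.0% with TMM, and 64.4% and 58.5% in TKO cells against 52.5%.

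Cbx5 (HP1alpha, chromosome 15, 103191546 to 103239816, minus strand) fell most. In wild type cells its level was 1177 and 1210.0 CPM with DMSO and 507 and 475 with TSA, and in TKO cells it was 1026 and 848 with DMSO and 304 and 247 with TSA. The 4 TSA libraries all lay below the 4 DMSO libraries, with the TKO TSA pair lowest. The log2 fold change was -1.28 ± 0.12 (SE) in wild type (2.43-fold lower, adjusted p = 2.58e-05, edgeR) and -1.76 ± 0.12 (SE) in TKO cells (3.4-fold lower, adjusted p = 2.32e-06, edgeR).

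Cbx1 (HP1beta, chromosome 11, 96789136 to 96808640, plus strand) was at 152 and 181 CPM with DMSO and 109 and 104 with TSA in wild type cells, and at 153 and 146 with DMSO and 99.1 and 99.6 with TSA in TKO cells. Every TSA library was below every DMSO library. Cbx1 fell by 0.64 on the log2 scale in wild type (SE 0.10, adjusted p = 0.000436, edgeR) and by 0.59 in TKO cells (SE 0.10, adjusted p = 0.000489, edgeR).

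Cbx3 (HP1gamma, chromosome 6, 51470616 to 51483704, plus strand) was at 20.6 and 26.8 CPM with DMSO and 11.2 and 14.9 with TSA in wild type cells, and at 19.3 and 18.2 with DMSO and 14.4 and 9.1 with TSA in TKO cells. The groups did not overlap within a genotype, although the replicates of wild type DMSO and of TKO TSA lay well apart. Cbx3 fell by 0.86 (SE 0.22, adjusted p = 0.00812) and by 0.68 (SE 0.23, adjusted p = 0.0242) on the log2 scale in edgeR. The wild type call was lost without wild type DMSO replicate 2 (adjusted p = 0.0548) or TSA replicate 1 (0.0612), and the TKO call without DMSO replicate 1 (0.098), DMSO replicate 2 (0.0608) or TSA replicate 2 (0.202) and with total counts (0.0625).

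Trim28 (KAP1, chromosome 7, 13024152 to 13031032, plus strand), the scaffold between KRAB zinc finger proteins and Setdb1, was at 2426 and 2295 CPM with DMSO and 1447 and 1368 with TSA in wild type cells, and at 2428 and 2454 with DMSO and 1402 and 1410.0 with TSA in TKO cells. The 2 treatments were far apart and the 2 genotypes close within each treatment. Trim28 fell by 0.75 (SE 0.08, adjusted p = 5.87e-05) in wild type and by 0.80 (SE 0.08, adjusted p = 2.12e-05) in TKO cells on the log2 scale in edgeR.

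Among the writers, Suv39h2 (chromosome 2, 3455815 to 3474986, minus strand) was at 77.9 and 96.0 CPM with DMSO and 58.1 and 59.7 with TSA in wild type cells, and at 95.9 and 84.1 with DMSO and 64.96 and 55.76 with TSA in TKO cells. No TSA library reached a DMSO library. It fell by 0.56 (SE 0.13, adjusted p = 0.00341) and by 0.58 (SE 0.12, adjusted p = 0.00229) on the log2 scale in edgeR. Of its exon bases 4.9% overlap Dclre1c on the opposite strand, and whether strand was used in counting is not given.

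Ehmt1 (GLP, chromosome 2, 24790773 to 24919590, minus strand) was at 152 and 147 CPM with DMSO and 115 and 105 with TSA in wild type cells, and at 143 and 135 with DMSO and 106 and 99.0 with TSA in TKO cells. It fell by 0.44 in each genotype on the log2 scale (SE 0.09 each, adjusted p = 0.00218 and 0.0018, edgeR). Its partner Ehmt2 (G9a, chromosome 17, 34898499 to 34914048, plus strand) was at 223 and 200.1 CPM with DMSO and 204 and 158 with TSA in wild type cells, and at 205.0 and 205.1 with DMSO and 179 and 110.2 with TSA in TKO cells. The wild type groups overlapped, and the 2 TKO TSA libraries were far apart from each other. The log2 fold change of Ehmt2 was -0.23 ± 0.19 (SE, adjusted p = 0.326, edgeR) in wild type and -0.50 ± 0.19 (SE, adjusted p = 0.0384, edgeR) in TKO cells. The TKO value was -0.90 without TSA replicate 1 (adjusted p = 0.000697, edgeR). It was -0.19 and no longer called without TSA replicate 2 (0.31), and was also not called without DMSO replicate 1 (0.112), without DMSO replicate 2 (0.109), with total counts (0.109) or with the upper quartile (0.066).

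Suv39h1 (chromosome X, 8061171 to 8074760, minus strand) was the 1 gene of the 10 that rose with TSA, in TKO cells. It was at 66.2 and 51.5 CPM with DMSO and 65.8 and 61.0 with TSA in wild type cells, and at 39.0 and 30.2 with DMSO and 66.2 and 79.6 with TSA in TKO cells. The 2 TKO DMSO libraries were the lowest of the 8, and the TKO TSA libraries overlapped the wild type DMSO range. With TSA the log2 fold change was 0.11 ± 0.15 (SE, adjusted p = 0.582, edgeR) in wild type and 1.07 ± 0.16 (SE, 2.1-fold higher, adjusted p = 0.000173, edgeR) in TKO cells.

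Setdb1 (chromosome 3, 95323525 to 95357202, minus strand) was at 218 and 210.3 CPM with DMSO and 179 and 189 with TSA in wild type cells, and at 242 and 238 with DMSO and 238 and 256 with TSA in TKO cells. All 4 TKO libraries were above all 4 wild type libraries. With TSA it fell by 0.22 on the log2 scale in wild type (SE 0.09, adjusted p = 0.0488, edgeR), while in TKO cells the log2 fold change was 0.04 ± 0.08 (SE, adjusted p = 0.688, edgeR). The wild type call was lost whichever single library was left out (adjusted p from 0.0537 to 0.224) and with total counts, where the log2 fold change was -0.01, the upper quartile, no filter (0.0675), a fit to the compared groups only (0.103) or DESeq2 (0.102).

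Atrx (chromosome X, 105797615 to 105929372, minus strand), which deposits histone H3.3 with Daxx, was at 518 and 549 CPM with DMSO and 490.0 and 491 with TSA in wild type cells, and at 472 and 430.4 with DMSO and 452 and 384 with TSA in TKO cells. Its log2 fold change with TSA was -0.12 ± 0.10 (SE, adjusted p = 0.322, edgeR) in wild type and -0.11 ± 0.10 (SE, adjusted p = 0.355, edgeR) in TKO cells. The sign of these values turned with total counts, to 0.08 and 0.04, and in wild type cells with the upper quartile, to 0.03.

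**Figure D2:**
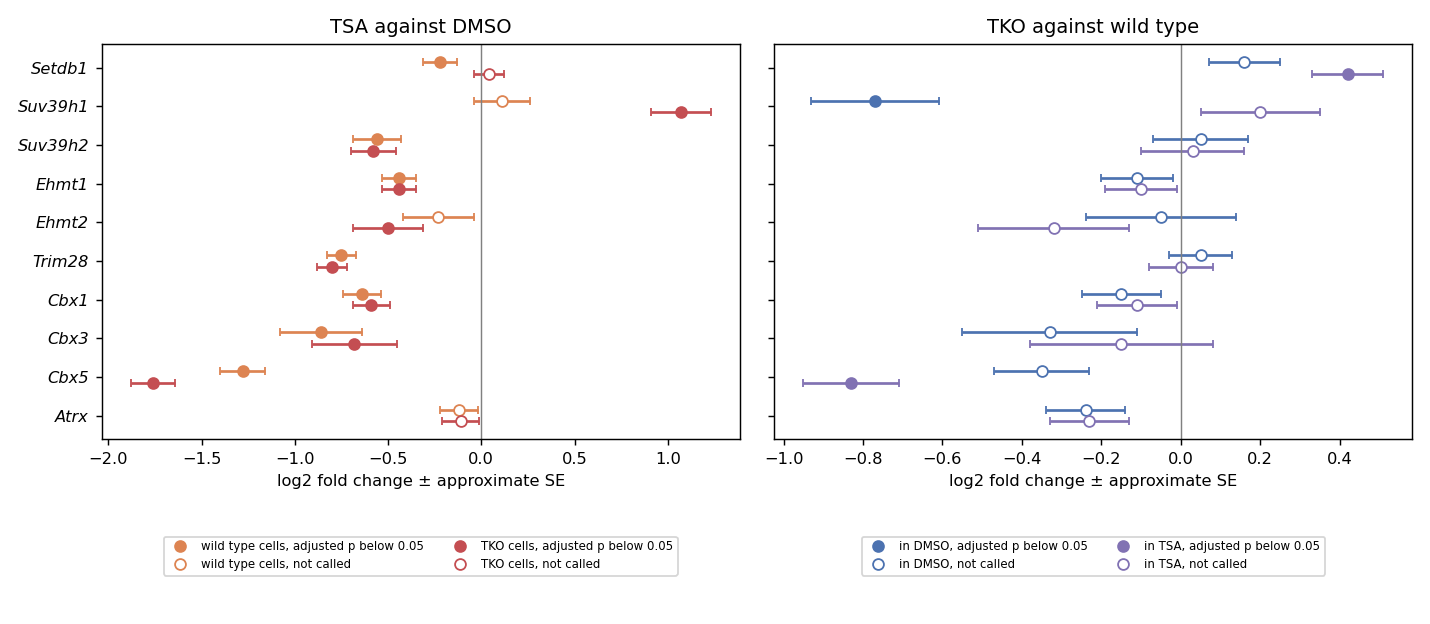
Log2 fold change with approximate SE (x axis) of each of the 10 genes (y axis), for TSA against DMSO in each genotype on the left and TKO against wild type in each treatment on the right, with filled points for genes called by edgeR. On the left, Cbx5 reached -1.28 and -1.76 and Suv39h1 in TKO cells 1.07. On the right, most points were open and near 0.

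Other measures moved with TSA beside these genes. Of 8 ESC markers, 7 were called lower with TSA in each genotype. The summed level of 6 trophoblast markers was 22.4 to 23.1 CPM in wild type DMSO and 90.6 to 94.0 in wild type TSA, and that of 8 fibroblast markers 38.5 to 45.2 and 80.4 to 96.2. In TKO cells the trophoblast sum was 10.4 to 16.3 CPM in DMSO and 52.2 to 65.3 in TSA, and the fibroblast sum 11 in both DMSO libraries and 36.4 to 54.5 in TSA. The sum of 6 neural markers was 342 to 423 CPM with DMSO and 178 to 211 with TSA in wild type cells, and 300.0 to 331 and 163 to 169 in TKO cells. Of these 6, 4 were called lower and 1 higher with TSA in wild type, and 3 lower and 1 higher in TKO cells. The sum of 6 endoderm markers was 5.5 to 7.3 CPM with DMSO and 8.8 to 11.6 with TSA in wild type, and 18.3 to 20.2 and 28.3 to 32.4 in TKO cells. That of 5 mesoderm markers was 16.2 to 25.7 and 14.5 to 20.2 in wild type, and 7.94 to 8.22 and 20.6 to 23.2 in TKO cells. Of all the markers listed, Dcn was the one listed at 0 in both libraries of a group, TKO TSA. The share of counts on Rn45s, the ribosomal RNA precursor, was 1.85% to 2.06% in the DMSO libraries and 1.42% to 1.5% in the TSA libraries. The part of these measures in the fall of the 10 genes was not tested, and in bulk RNA fewer cells of a type and less RNA per cell cannot be told apart.

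The comparison of TKO with wild type cells asks whether the writers and readers were expressed at a higher level where DNA methylation is lost. In DMSO none of the 10 was called higher, 1 was called lower and 9 were not called, against 20.4% of all genes called, 9.63% higher and 10.7% lower (edgeR). None was higher at an unadjusted p below 0.05 or in DESeq2. Cell type markers also differed between the genotypes in DMSO (edgeR). Of 8 ESC markers 4 were higher and 0 lower, and of 6 endoderm markers 4 and 0. Of 6 trophoblast markers 1 was higher and 3 lower, and of 7 tested fibroblast markers 0 and 3. Of 4 tested mesoderm markers 1 was higher and 2 lower, and of 6 neural markers 1 and 1. The part of these differences in the levels of the 10 genes was not tested. Suv39h1 fell by 0.77 on the log2 scale (SE 0.16, 1.7-fold lower, adjusted p = 0.00613, edgeR). That call was lost without wild type DMSO replicate 1 (adjusted p = 0.0519) or TKO DMSO replicate 2 (0.0741).

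Approximate 95% intervals for single genes, not adjusted for many genes, give how large a rise in TKO DMSO these libraries allow. With 2 libraries a group and a spread that may be technical, the intervals cover these libraries only. The upper end of the 95% interval of the fold, TKO over wild type, was at most 1.29 for any of the 10. It was 1.28 for Setdb1, 1.25 for Suv39h2, 1.07 for Ehmt1, 1.29 for Ehmt2, 1.17 for Trim28, 1.05 for Cbx1 and 1.11 for Cbx3. For Cbx5 and Atrx the upper ends were 0.939 and 0.984, although neither was called after adjustment over all genes. The libraries of the 2 groups did not overlap for 7 of the 10 genes, against 59.8% of all genes.

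Cbx5 in TKO DMSO had a log2 fold change of -0.35 ± 0.12 (SE, adjusted p = 0.0584, edgeR). With the replicate number as a block it was called lower, at -0.36 (adjusted p = 0.0149, edgeR). It was called lower in DESeq2 (adjusted p = 0.0411), with no filter on low counts in edgeR (0.0429), and without TKO TSA replicate 1 (0.0354) or replicate 2 (0.0339). Setdb1 had 0.16 ± 0.09 (SE, adjusted p = 0.204), Trim28 0.05 (adjusted p = 0.733) and Ehmt2 -0.05 ± 0.19 (SE, adjusted p = 0.897) in edgeR. The median of the 10 was -0.13, against -0.01 over all genes.

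With TSA present, 1 of the 10 genes was higher in TKO than in wild type cells, 1 was lower and 8 were not called, against 18.4% of all genes called, 10% higher and 8.38% lower (edgeR). The libraries did not overlap for 5 of the 10, against 63% of all genes. Setdb1 rose by 0.42 on the log2 scale (SE 0.09, 1.34-fold, adjusted p = 0.00647, edgeR). This call was lost without wild type TSA replicate 1 (adjusted p = 0.0806) or TKO TSA replicate 2 (0.0528). Cbx5 fell by 0.83 (SE 0.12, 1.78-fold lower, adjusted p = 0.00106, edgeR) and was called under all 15 alternative analyses. Suv39h1, which was lower in TKO cells in DMSO, had a log2 fold change of 0.20 (adjusted p = 0.387, edgeR) in TSA. Ehmt2 was at -0.32 ± 0.19 (SE, adjusted p = 0.263, edgeR), and at -0.71 and called without TKO TSA replicate 1 (0.0128), and Trim28 at 0.00 (adjusted p = 0.991, edgeR).

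Whether TSA acted differently in the 2 genotypes was tested by the interaction, which is the log2 effect of TSA in TKO minus that in wild type cells. None of the 10 was called, against 1.35% of all genes (edgeR). At an unadjusted p below 0.05, 1 was higher and 1 lower, and DESeq2 called 1. Suv39h1 had an interaction of 0.97 ± 0.22 (SE, unadjusted p = 0.000953, adjusted p = 0.0606, edgeR), with a 95% interval of 0.49 to 1.45. With the replicate number as a block it was called, at 0.98 (adjusted p = 0.0174, edgeR). It was called in DESeq2 (adjusted p = 0.00665), with no filter on low counts in edgeR (0.0135), and without wild type DMSO replicate 2 (0.022) or TKO TSA replicate 1 (0.0491). Cbx5 had an interaction of -0.48 ± 0.17 (SE, adjusted p = 0.207, edgeR) and Setdb1 of 0.26 ± 0.12 (SE, adjusted p = 0.351, edgeR). The 5 comparisons share libraries and are not independent.

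The balance within each family was followed as the share of its normalised counts per kb of exon, as a description with no test. Cbx5 made up 48.2% ± 2.77 of the HP1 total with DMSO and 37.5% ± 0.773 with TSA in wild type cells, and 44.8% ± 2.48 with DMSO and 26.6% ± 2.46 with TSA in TKO cells (SD, n = 2 each). The Cbx1 share went the other way, at 47.1% ± 2.25, 57.5% ± 0.37, 50.7% ± 2.31 and 67.8% ± 3.96 (SD, n = 2 each) in the same order. Cbx1 and Cbx5 were close to equal in wild type DMSO. In both TSA groups the Cbx1 share was above the Cbx5 share in each library, although both genes fell with TSA. The same order held in TKO DMSO, with 49.1% and 52.4% for Cbx1 and 46.5% and 43.0% for Cbx5. This order of the genes rests on division by listed exon lengths of 1274 bases for Cbx1 and 8986 for Cbx5. Whether all these exons were expressed was not tested. By raw counts Cbx5 was above Cbx1 in every group.

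Suv39h1 held 48.2% ± 8.07 of the Suv39h pair with DMSO and 59.6% ± 1.72 with TSA in wild type cells, and 34.4% ± 2.0 with DMSO and 62.3% ± 5.58 with TSA in TKO cells (SD, n = 2 each). The TKO DMSO libraries lay below all others. Ehmt2 held 63.9% ± 1.24, 67.1% ± 2.41, 64.9% ± 0.852 and 63.1% ± 6.91 (SD, n = 2 each) of the Ehmt pair, a range within the spread of the TKO TSA libraries.

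**Figure D3:**
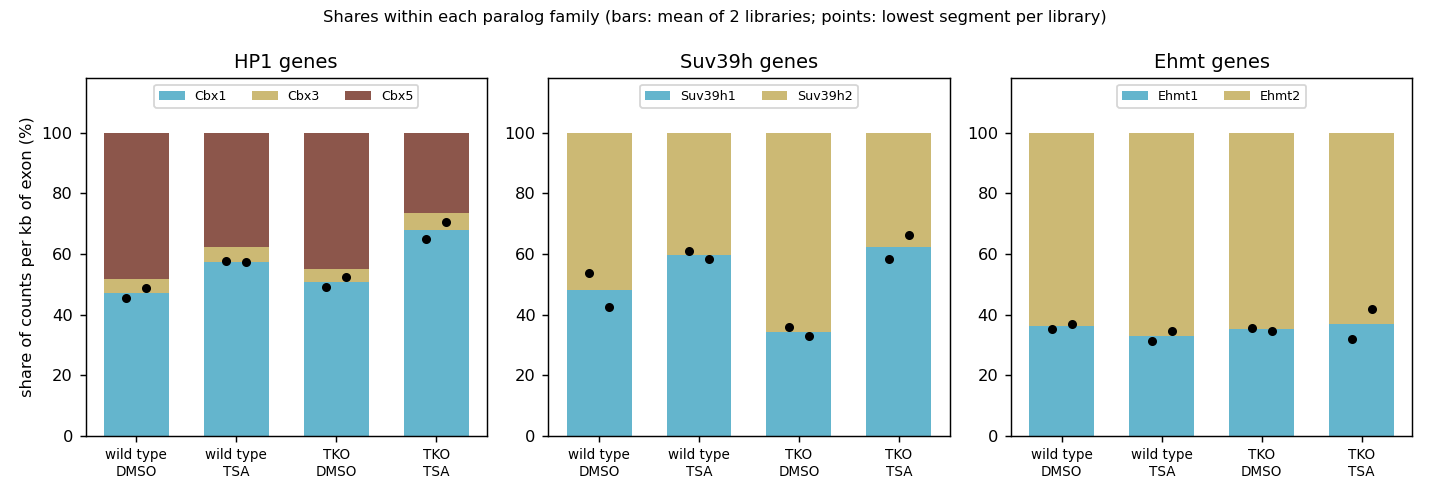
Share of normalised counts per kb of exon (y axis, percent) held by each gene of the HP1, Suv39h and Ehmt families in the 4 groups (x axis). Bars stack the means of 2 libraries and points give the lowest segment in each library. The Cbx5 segment was 48.2% in wild type DMSO and 26.6% in TKO TSA, and the Suv39h1 segment was smallest in TKO DMSO at 34.4%.

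Related genes of the pathway were taken from lists of other H3K9 methyltransferases (4 genes), partners of the writers (18), H3K9 demethylases (11) and partners of HP1 or Atrx (12). With TSA in wild type cells, 13 of 18 writer partners fell and 1 rose, with a median log2 fold change of -0.49, against 25.9% of all genes called lower and 37.3% of those within the level range of the 10 (edgeR). In TKO cells 10 fell and 1 rose, with a median of -0.40, against 27.9% and 37.2% of genes called lower. Scaling by total counts or the upper quartile left 8 or 9 of the 18 lower in wild type cells and 8 or 9 in TKO cells. Fewer of all genes were called lower with these scalings too. Of the genes called in wild type cells 70.5% and 65.8% were then higher, against 51.0% with TMM. Zfp57, a KRAB zinc finger protein that guards imprinted regions with Trim28, fell by 1.05 (SE 0.15, adjusted p = 0.00026) in wild type and by 1.52 (SE 0.15, adjusted p = 1.74e-05) in TKO cells on the log2 scale in edgeR. Zfp644, which brings Ehmt1 and Ehmt2 to chromatin with Wiz, fell by 0.71 in wild type (SE 0.10, adjusted p = 0.000236) and by 0.97 in TKO cells (SE 0.10, adjusted p = 2.28e-05) in edgeR. Sumo2 fell by 0.85 in wild type (SE 0.21, adjusted p = 0.0066) and by 0.89 in TKO cells (SE 0.22, adjusted p = 0.00477) in edgeR, where 8.52% of its exon bases overlap Mir684-1 and its copies in the genome leave its count uncertain. Zfp809, a zinc finger protein that silences proviruses, rose by 0.41 in wild type (adjusted p = 0.0315, edgeR), a call lost without DMSO replicate 1 (0.192) or TSA replicate 2 (0.333) and with the compared groups only (0.0644). Atf7ip, the stabilising partner of Setdb1, rose by 0.35 in TKO cells (adjusted p = 0.015, edgeR), a call lost without DMSO replicate 2 (0.158) or TSA replicate 1 (0.078) and with a gene length offset (0.0672).

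Genes of enzymes that remove H3K9 methylation were also among those that fell. Of 11 demethylases, 7 fell and 0 rose in wild type cells (0 also at an unadjusted p below 0.05 and in DESeq2), with a median of -0.60, and 6 fell and 1 rose in TKO cells, with a median of -0.40 (edgeR), beside the same shares of all genes. With total counts or the upper quartile 5 of the 11 fell in wild type and 6 in TKO cells, where fewer of all genes were called lower as well. The gene that rose in TKO cells was Kdm4d, at a low average of 0.893 CPM. It had 5 and 5 counts with DMSO and 16 and 26 with TSA in TKO cells. Kdm4b fell by 1.47 (SE 0.13, adjusted p = 1.91e-05) in wild type and by 1.39 (SE 0.13, adjusted p = 1.03e-05) in TKO cells on the log2 scale in edgeR. Kdm4c fell by 1.24 in wild type (adjusted p = 3.91e-05) and by 1.18 in TKO cells (adjusted p = 2.45e-05), and Kdm3a fell by 1.23 (adjusted p = 1.02e-05) and by 1.53 (adjusted p = 1.58e-06) in edgeR. Of 12 partners of HP1 or Atrx, 8 fell and 2 rose in wild type cells, and 8 fell and 1 rose in TKO cells, with medians of -0.29 and -0.32 (edgeR). Of all genes, 25.9% were called lower and 27% higher in wild type, and 27.9% and 30.8% in TKO cells. When any 1 wild type library was left out, fewer of the 12 fell in wild type cells, and fewer of all genes were called lower. With total counts or the upper quartile 3 of the 12 fell in wild type cells, and 5 or 6 in TKO cells. The count of this list thus depends on the scaling, as does that of all genes called lower. Kmt5b, an H4K20 methyltransferase that HP1 recruits, fell by 1.06 (SE 0.10, adjusted p = 3.3e-05) and by 1.24 (SE 0.10, adjusted p = 5.44e-06) in edgeR. Daxx fell by 0.76 in wild type (adjusted p = 0.00109) and by 0.61 in TKO cells (adjusted p = 0.00316) in edgeR. Sgo1, the centromere guardian, fell by 0.50 in wild type (adjusted p = 0.00192) and by 0.64 in TKO cells (adjusted p = 0.00028) in edgeR. Senp7, a SUMO protease that binds HP1alpha, rose by 0.74 in wild type (SE 0.22, adjusted p = 0.0172) and by 1.04 in TKO cells (SE 0.23, adjusted p = 0.00243) in edgeR, the first a call lost without DMSO replicate 2 (0.0957) or TSA replicate 2 (0.0847). Lrif1 rose by 0.40 in wild type (adjusted p = 0.0353, edgeR), a call lost without wild type DMSO replicate 1 (0.212), wild type TSA replicate 2 (0.325), TKO DMSO replicate 1 (0.0544) or TKO DMSO replicate 2 (0.054), with a gene length offset (0.0784) or with the compared groups only (0.0672). Without wild type TSA replicate 2 the log2 value was 0.21.

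Of the 4 other H3K9 methyltransferases, none was called with TSA in wild type cells, at an unadjusted p below 0.05 or in DESeq2 either, against 52.8% of all genes called. With total counts 1 was called higher. Prdm2 rose by 0.35 with TSA in TKO cells (SE 0.10, adjusted p = 0.00904, edgeR), a call lost without DMSO replicate 1 (0.0737) or TSA replicate 2 (0.0922) and with a gene length offset (0.0765).

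Between genotypes in DMSO, where 20.4% of all genes were called, 2 of 18 writer partners and 3 of 11 demethylases were. Among writer partners Zfp809 was 0.90 higher on the log2 scale in TKO cells (SE 0.14, adjusted p = 0.00149, edgeR) and Pphln1, a subunit of the HUSH silencing complex, was lower at -0.62 (SE 0.11, adjusted p = 0.00213, edgeR), and the other 16 were not called. Among demethylases Kdm3a rose by 0.59 (SE 0.09, adjusted p = 0.00127, edgeR), while Jmjd1c fell by 0.46 (adjusted p = 0.0174) and Kdm4a by 0.36 (adjusted p = 0.0207) in edgeR. The Jmjd1c call was lost without wild type DMSO replicate 1 (0.108) or TKO DMSO replicate 2 (0.179), and the Kdm4a call without wild type DMSO replicate 1 (0.0567), TKO DMSO replicate 1 (0.173) or TKO DMSO replicate 2 (0.0508). None of the 4 other methyltransferases and none of the 12 partners of HP1 or Atrx was called in DMSO (edgeR). At an unadjusted p below 0.05 these lists had 1 and 2 genes, and DESeq2 called 0 and 1.

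Between genotypes in TSA, 18.4% of all genes were called, 10% higher and 8.38% lower. Of the lists, 2 of 4 other methyltransferases were called higher, and 2 of 18 writer partners higher and 1 lower. Of 11 demethylases 1 was called higher, and of 12 partners of HP1 or Atrx 1 was called lower. In TSA, the TKO cells had higher Prdm2 at 0.50 (SE 0.10, adjusted p = 0.00502), Zfp809 at 0.71 (SE 0.14, adjusted p = 0.00603) and Atf7ip at 0.47 (SE 0.11, adjusted p = 0.0126) than wild type cells, on the log2 scale in edgeR. They had lower Zfp644 at -0.52 (SE 0.10, adjusted p = 0.0061) and lower Lbr, the lamin B receptor that binds HP1, at -0.42 (SE 0.11, adjusted p = 0.0218) in edgeR. Setdb2 at 0.36 (adjusted p = 0.0442) and Kdm3a at 0.29 (adjusted p = 0.048) were called in edgeR, and each lost its call in 6 of 8 fits that left out 1 library, all but those without a wild type DMSO library. Both calls were also lost with total counts, the upper quartile, no filter and DESeq2 (0.0934 and 0.0639), and that of Kdm3a with a length offset (0.086) and with the compared groups only (0.053). Without wild type TSA replicate 1, each of these 7 genes lost its call, in a fit where far fewer of all genes were called. Their log2 values were then 0.47 for Prdm2, 0.52 for Zfp809, 0.51 for Atf7ip, -0.47 for Zfp644, -0.41 for Lbr, 0.31 for Setdb2 and 0.32 for Kdm3a. Atf7ip was also lost without wild type TSA replicate 2 (0.078) or TKO TSA replicate 1 (0.0638), Zfp644 without TKO TSA replicate 2 (0.0596), and Lbr without wild type TSA replicate 2 (0.071) or TKO TSA replicate 2 (0.177). None of the 45 list genes was called for the interaction (edgeR), where 1.35% of all genes were. At an unadjusted p below 0.05 there were 5, and DESeq2 and the fit with a replicate block each called 1.

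**Figure D4:**
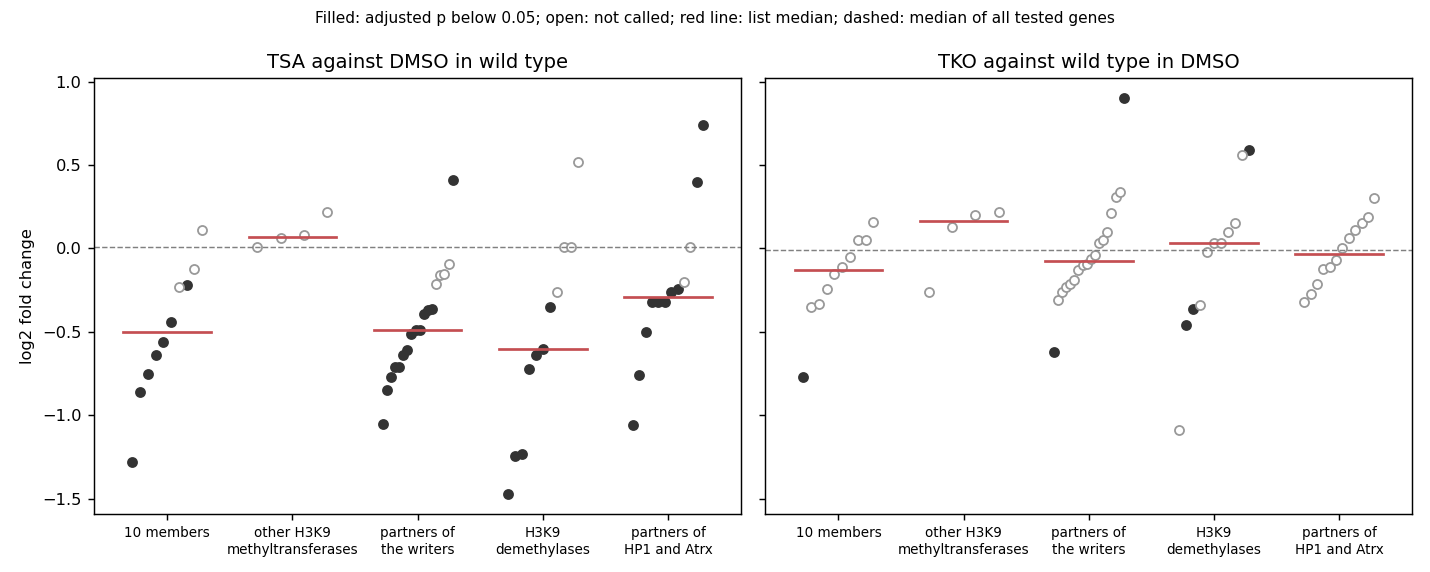
Log2 fold change (y axis) of each gene of the 10 and of the 4 related lists (x axis) for TSA against DMSO in wild type cells on the left and TKO against wild type in DMSO on the right, with filled points for genes called by edgeR, a red line at each list's median and a dashed line at the median of all genes. With TSA the medians ran from 0.07 for the other methyltransferases to -0.60 for the demethylases. In DMSO each list's median lay between -0.13 and 0.16.

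Cbx5 and Trim28 had the largest F statistics over the 4 groups among the 10, at 118.3 and 57.0. Among the 10024 genes that averaged 10 CPM or more, the 3 whose level followed Cbx5 most closely over the 8 libraries were Zfp507 and Cisd2, each with a Pearson r of 0.998, and Zfp644, with 0.997. For Trim28 they were Kdm4b and Rn45s, each at 0.997, and Slc5a11, at 0.996. The 8 libraries fall into 4 groups, so these values describe agreement of group means.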

How the data were processed

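Per the labels' protocols, total RNA was DNase-treated, depleted of rRNA, made into strand-directional libraries and sequenced as 51 bp paired reads. The authors deposited raw read counts per gene for the 8 RNA-seq libraries, with exon coordinates and a summed exon length in bases. The submitters' processing notes name TopHat2 2.0.13, featureCounts 1.4.5-p1, edgeR 3.22.3 and mm10, without their roles. The annotation, the strand setting and how multi-mapping reads were counted are not given in the sources used here. The series' other 118 samples were not analysed here.

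From the deposited counts, edgeR 4.0.16 in R 4.3.3 fitted 1 quasi-likelihood model with 4 group means to all 8 libraries (filterByExpr, TMM, 4 residual degrees of freedom), and p-values were adjusted by Benjamini-Hochberg over 15822 genes. All tests were two-sided, and genes with an adjusted p below 0.05 were called. SEs were derived from the fold change and F and are approximate. With 2 libraries against 2 an exact permutation test cannot go below p = 0.333, so single-gene p-values rest on the variance shared across genes (common coefficient of variation 10.3%). Replicates differed by more than sampling noise, with a chi-square per degree of freedom of 5.28 to 12.2. Floors and counts cover counting error only, since PCR reads are not independent molecules.

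The 10 genes, the lists and the markers were chosen with earlier results of these data known. Text names all 10, and per list and comparison up to 2 called genes in each direction with the largest change, an average of 1 CPM or more and separate groups of libraries. Kdm4d, below that average, is named as the demethylase that rose. Kmt5b and Sgo1 are listed in the table as Suv420h1 and Sgol1. Alternatives were other scalings, no filter, a gene length offset, a fit to the compared groups only, a replicate block, DESeq2 1.42.0 and leaving out each library.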

Additional observations from a re-analysis of the deposited data

How the results depend on the processing

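Over all alternatives, Suv39h2, Ehmt1, Trim28, Cbx1 and Cbx5 stayed lower with TSA in both genotypes, Suv39h1 stayed higher with TSA in TKO cells, and Cbx5 stayed lower in TKO cells under TSA. The number of the 10 called for TKO against wild type in DMSO was 2 with no filter, with the replicate block and in DESeq2, against 1. Of all genes 16.8%, 26.7% and 17.4% were called in these 3 fits, against 20.4%. For the interaction 1 of the 10 was called in each of these fits, where 2.39%, 4% and 2.53% of all genes were, against 1.35%. When 1 library was left out, the number called moved in every comparison, for the 10 and for all genes.

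The replicate numbers are shared by the 4 groups, but the labels do not say what a number marks. After subtracting group means, libraries with the same number correlated at 0.0673 to 0.325 over genes, positive for every pair of groups. Since not all values were above 0.1, the main fit did not pair the libraries by number. Whether the numbers mark a shared batch was not tested. With the number as a block, the calls over all genes were 9256, 10039, 4217, 4097 and 633 for TSA in wild type, TSA in TKO, TKO in DMSO, TKO in TSA and the interaction, against 8358, 9284, 3221, 2910 and 213. With the block Suv39h1 was called for the interaction (adjusted p = 0.0174, edgeR) and Cbx5 for TKO in DMSO (0.0149). The interaction had 488 calls with no filter, 401 in DESeq2 and 10 to 410 with 1 library left out.

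Values that turned sign were all of genes not called. With total counts and the upper quartile, TSA in wild type gave 0.08 and 0.03 for Atrx, and TKO in TSA gave -0.00 and -0.01 for Suv39h2. TSA in TKO gave 0.04 for Atrx with total counts and -0.06 for Setdb1 with a length offset. The interaction turned to -0.05 (total counts), -0.07 (upper quartile), -0.03 (no filter), -0.03 (length offset) and -0.01 (DESeq2) for Ehmt1, to -0.01 and -0.03 (the scalings) for Cbx1, and to -0.05, -0.06 (the scalings), -0.02 (no filter) and -0.06 (length offset) for Atrx. The cause was not tested.

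When 1 library was left out, the values of genes not called that turned sign ranged as follows. TSA in wild type gave -0.07 to 0.30 for Suv39h1, and TSA in TKO gave -0.01 to 0.09 for Setdb1 and -0.24 to 0.00 for Atrx. TKO in DMSO gave -0.11 to 0.21 for Suv39h2 and -0.12 to 0.02 for Ehmt2. TKO in TSA gave -0.08 to 0.14 for Suv39h2, -0.04 to 0.04 for Trim28 and -0.52 to 0.15 for Cbx3. The interaction gave -0.17 to 0.14 for Suv39h2, -0.07 to 0.07 for Ehmt1, -0.67 to 0.04 for Ehmt2, -0.09 to 0.18 for Cbx1, -0.18 to 0.48 for Cbx3 and -0.11 to 0.13 for Atrx.

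Shares taken from raw counts, not divided by exon length, moved by construction. In wild type cells (DMSO, then TSA) and then TKO cells (DMSO, then TSA) they were 12.0%, 17.5%, 13.6% and 25.8% for Cbx1, 1.71%, 2.15%, 1.7% and 3.0% for Cbx3, and 86.3%, 80.4%, 84.7% and 71.1% for Cbx5. Suv39h1 was at 40.4%, 51.8%, 27.7% and 54.6%, and Ehmt2 at 58.5%, 62.0%, 59.6% and 57.8%. The order of the groups within Cbx1 and Cbx5 was as with shares per kb, but the raw share of Cbx5 was above that of Cbx1 in every group. Every one of the 10 genes lay far above 3 counts in each library, and the effect of depth on their precision was not tested.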
